A study of Mus musculus with 2 samples.

Results

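The teneurins (Tenm1, Tenm2, Tenm3 and Tenm4), the latrophilins (Adgrl1, Adgrl2 and Adgrl3) and the FLRT genes (Flrt1, Flrt2 and Flrt3) were described in the forebrain of mouse embryos of strain B6NCrl at embryonic day 14.5. These 10 genes were taken by symbol, as the complete membership of the 3 families, from 43346 Ensembl genes in the gene tables, of which 21461 were nuclear protein-coding genes. Total RNA longer than 200 nt was sequenced from 2 libraries made from 10 ng each, which form a single group with no treatment, time course or control. The labels call each sample a single forebrain and number the libraries as biological replicates 1 and 2, but they also give both samples the same donor identifier and label the sex as mixed or pooled, and they give different collection dates. Whether the libraries came from separate embryos therefore cannot be settled from the labels, and every SD below is the spread between these 2 libraries. With n = 2 in 1 group no test between groups was possible, and since the smallest p that 2 libraries allow in an exact test is 0.5, none is given.

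Teneurins are large transmembrane proteins whose extracellular part holds epidermal growth factor (EGF)-like repeats and a beta-propeller, and they act as adhesion ligands between neurons. Latrophilins are adhesion G protein-coupled receptors that bind teneurins and FLRT proteins through neighbouring domains at their N-terminus, and FLRT proteins are leucine-rich repeat proteins that also bind Unc5 receptors. In the developing brain these proteins take part in neuronal migration, axon guidance and the matching of synaptic partners, and short alternative exons in teneurins and latrophilins are known to alter their binding to each other.

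The libraries held 35310017 and 29250404 expected counts in replicates 1 and 2. A floor of 3 counts on a transcript of 1000 nt corresponded to 0.131 and 0.170 TPM (counts divided by transcript length and scaled to the library), so every member lay far above the counting limit. All 12 forebrain markers checked reached 1 TPM in both libraries (median 59.4 TPM), against 1 of 10 hindbrain and spinal cord markers (median 0.0125 TPM). The exception was Gbx2, at 17.5 TPM in both libraries. In such a bulk tissue, fewer cells of a type and less RNA per cell cannot be told apart.

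All 10 members reached 1 TPM in both libraries, as did 59.6% of nuclear protein-coding genes. Their medians in replicates 1 and 2 were 22.5 and 31.6 TPM, against 3.86 and 4.58 TPM over those 21461 genes. Gene levels ran from 9.16 ± 1.80 TPM for Flrt1 to 53.3 ± 2.06 TPM for Flrt3 (SD, n = 2), which placed the members between the 59.1 and 85.5 percentiles of nuclear protein-coding genes.

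**Figure D1:**
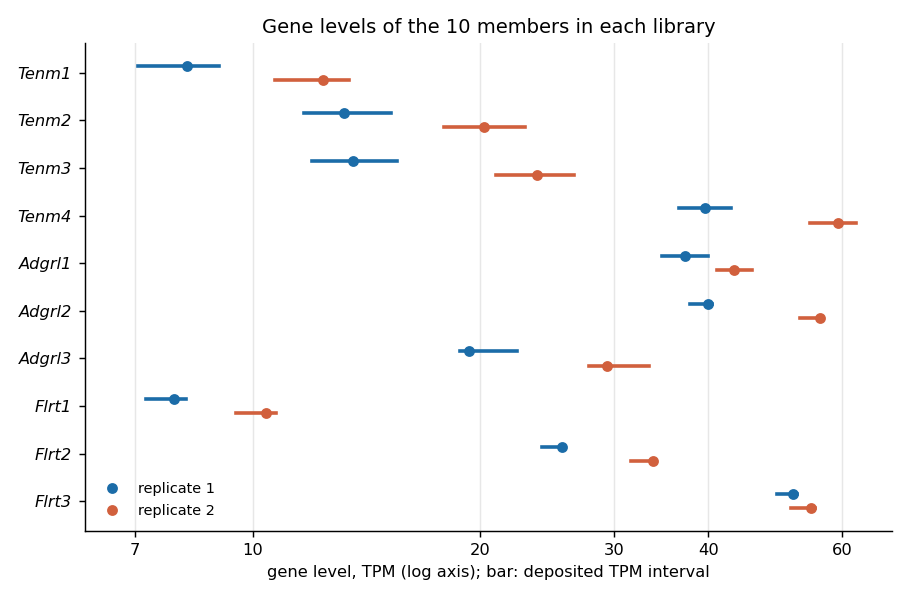
Gene level of each member in TPM (log axis) in replicates 1 and 2. Points are the deposited TPM and bars the interval deposited with it. Tenm1 and Flrt1 sit lowest and Flrt3, Tenm4, Adgrl2 and Adgrl1 highest, and replicate 2 lies to the right of replicate 1 for every member.

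Of the teneurins, the ligands of this system, Tenm4 had the highest gene level and Tenm1 the lowest. Tenm4 (ENSMUSG00000048078, chr7:96171246-96911093, plus strand, GRCm38), linked to myelination and neurite growth, was at 39.6 TPM in replicate 1 and 59.2 TPM in replicate 2. Tenm3 (chr8:48227682-48843951, minus strand), a wiring gene of the visual system and hippocampus, was at 13.6 and 23.7 TPM. Tenm2 (chr11:36006656-37235964, minus strand), a synaptic adhesion ligand of latrophilins, was at 13.2 and 20.2 TPM. Tenm1 (chrX:42527866-43429126, minus strand), the X-linked teneurin, was at 8.19 and 12.4 TPM. Tenm4 stood above the other teneurins in each library, while Tenm2 and Tenm3 overlapped. A pair was called different where, in both libraries, the intervals deposited with the TPM did not overlap and the same gene was higher. Tenm4 exceeded Tenm1 by 2.27 ± 0.01, Tenm2 by 1.57 ± 0.02 and Tenm3 by 1.43 ± 0.16 on the log2 scale of gene TPM (SD, n = 2), and these pairs were called. Tenm2 and Tenm3 also exceeded Tenm1, by 0.70 ± 0.01 and 0.83 ± 0.15, and were called. Tenm3 over Tenm2 was 0.14 ± 0.14 and was not called.

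A large part of the teneurins' gene TPM lay outside long coding transcripts, much of it in short transcripts that carried few counts. Transcripts were classed by their GENCODE M21 models, and a long coding transcript was a protein-coding model whose coding sequence reached 50% of the gene's longest. In that class Tenm4 was at 14.5 ± 1.74 TPM, against 49.4 ± 13.9 TPM for the whole gene (SD, n = 2). Tenm3 was at 4.07 ± 1.47 against 18.6 ± 7.18 TPM, and Tenm1 at 2.46 ± 0.672 against 10.3 ± 2.96 TPM. Not all of the rest was short, since a Tenm3 transcript of 7827 nt without an M21 model held 4.67 and 6.26 TPM in replicates 1 and 2. Tenm2 was at 10.6 ± 2.70 against 16.7 ± 4.96 TPM. The order of the teneurins then became Tenm4, Tenm2, Tenm3 and Tenm1, with Tenm3 below Tenm2 by a log2 ratio of -1.40 ± 0.16 in place of 0.14. By the summed bounds of their transcripts, Tenm2 was then called above Tenm3. Tenm2 over Tenm1 was then 2.11 in place of 0.70 on the log2 scale, and Tenm4 over Tenm2 was 0.47 in place of 1.57. Tenm3 over Tenm1 was 0.71 and was no longer called, since their intervals overlapped in both libraries. This class was defined after the data had been seen.

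In Tenm4 the leading transcript by TPM was Tenm4-209, of 708 nt, a coding model that is incomplete and lacks most of the protein. Tenm4-209 held 52.3% and 58.5% of the gene's TPM in replicates 1 and 2 but 6.35% and 8.47% of its expected counts. The full-length Tenm4-201 held 19.7% and 15.6% of the TPM and 52.9% and 49.8% of the counts. Dividing by length thus put a transcript with under 10% of the counts at the head of the gene, and the 2 libraries did so alike.

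In Tenm1 the 1143-nt non-coding Tenm1-204 held 49.2% and 48.0% of the TPM and 11.8% and 11.5% of the counts. No base of Tenm1-204 lies in an exon of a long coding transcript, and it begins 0.123 kb from the annotated 5′ end of the gene, while the main coding transcript Tenm1-203 begins 261 kb downstream. Tenm1-203 held 20.9% and 20.6% of the TPM and 61.4% and 60.5% of the counts, and the intron-retaining Tenm1-206 held 26.3% ± 1.07 of the TPM (SD, n = 2). Of the bases of Tenm1-206, 48.1% lie in exons of long coding transcripts. Models annotated as non-coding held 75.9% and 76.3% of the TPM of Tenm1 and 32.6% and 33.6% of its counts.

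In Tenm2 the 368-nt non-coding Tenm2-207 held 29.6% and 29.2% of the TPM with 1.20% and 1.24% of the counts. Tenm2-202, the coding transcript, held 65.5% and 61.7% of the TPM and 97.0% and 95.3% of the counts, and long coding transcripts held 63.6% of its TPM in the mean, the largest share of the 4 teneurins.

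In Tenm3 the 639-nt incomplete coding model Tenm3-202 held 30.7% and 37.4% of the TPM and 3.26% and 4.41% of the counts. Tenm3-201, the complete coding transcript, held 21.1% and 15.5% of the TPM and 36.5% and 29.8% of the counts, and Tenm3-204 held 8.20% and 13.9% of the TPM. A further transcript of 7827 nt, which the authors quantified but which has no model in M21, held 34.4% and 26.4% of the TPM and 52.4% and 44.5% of the counts. With it counted as coding, the level of Tenm3 was 9.54 TPM and Tenm3 over Tenm2 was -0.15 on the log2 scale, so the order of these genes rests on a transcript whose exons are unknown here.

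**Figure D2:**
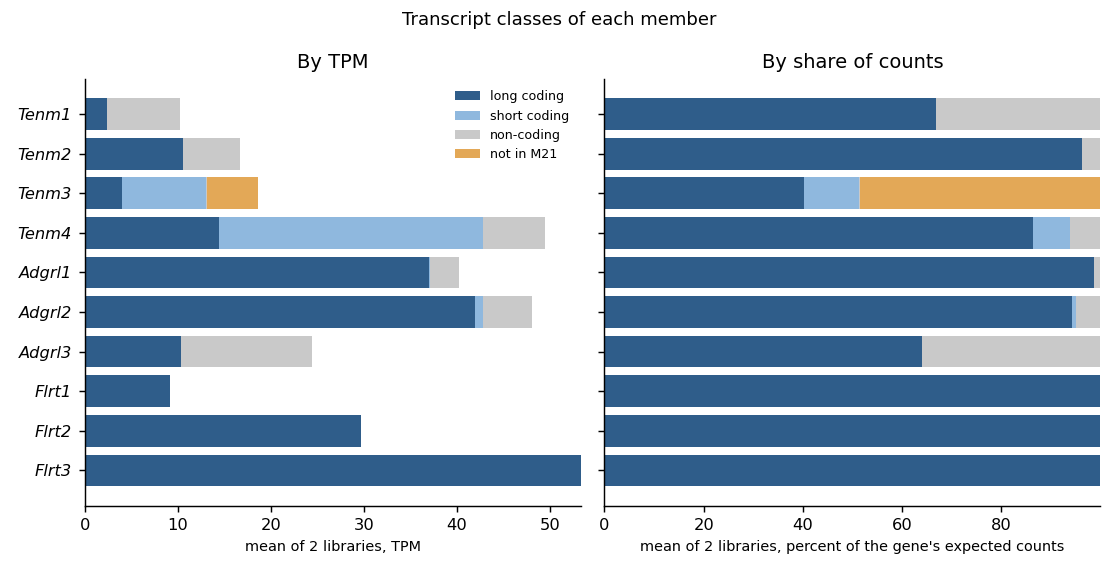
Mean TPM of each member over 2 libraries split by transcript class (left), and the share of the gene's expected counts in each class in percent (right). Long coding transcripts hold 29.9% of the TPM of Tenm4 and 86.4% of its counts, and all of the TPM of the FLRT genes.

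**Figure D3:**
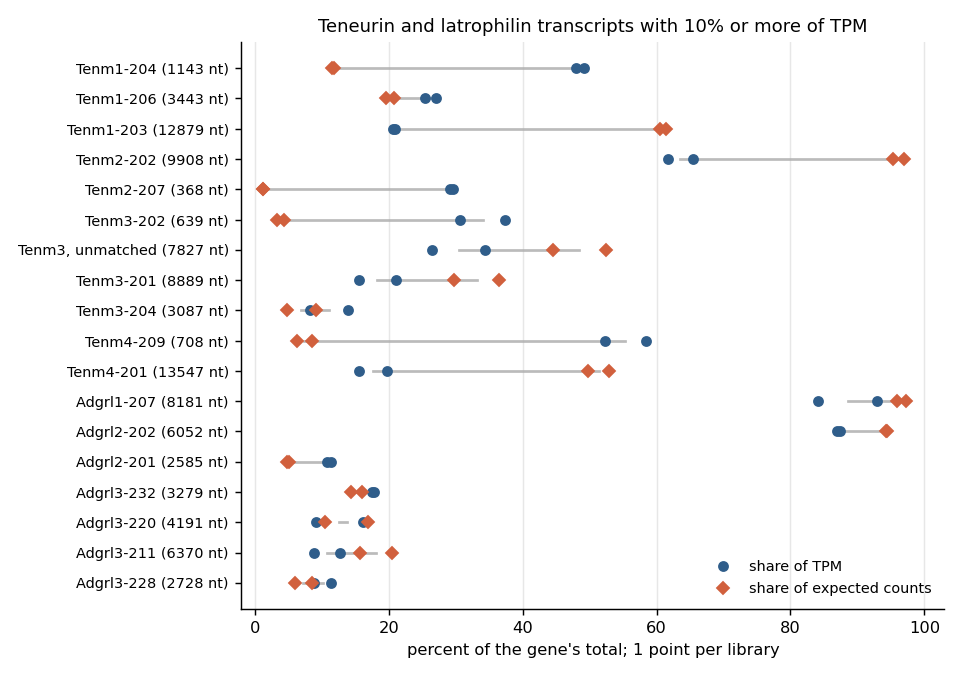
Share of the gene's TPM (circles) and of its expected counts (diamonds) held by each teneurin or latrophilin transcript with 10% or more of TPM, in percent, with 1 point per library. Tenm1-204, Tenm2-207, Tenm3-202 and Tenm4-209 hold from 29.2% to 58.5% of TPM and at most 11.8% of counts, and Tenm1-203, Tenm2-202, Tenm3-201, Tenm4-201 and Adgrl1-207 hold a larger share of counts than of TPM. Lengths are those of the quantified models.

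Short teneurin exons at matching sites are shown with 30 nt of transcript on each side, since their inclusion is given below where it could be measured. The Tenm2 21-nt exon and the Tenm1 24-nt exon were not among the exons with a model that skips them and are shown for their sequence alone. Each is printed 5′ to 3′ on the transcript strand from GENCODE M21 (GRCm38), with the exon in capitals. The 21-nt exon belongs to the part that encodes the beta-propeller, and lies at chrX:42648394-42648414 in Tenm1, chr11:36054926-36054946 in Tenm2, chr8:48287133-48287153 in Tenm3 and chr7:96854717-96854737 in Tenm4.
Tenm1 21-nt exon: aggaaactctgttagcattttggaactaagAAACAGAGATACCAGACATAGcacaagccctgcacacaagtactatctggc
Tenm2 21-nt exon: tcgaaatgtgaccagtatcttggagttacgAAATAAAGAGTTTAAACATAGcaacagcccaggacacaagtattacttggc
Tenm3 21-nt exon: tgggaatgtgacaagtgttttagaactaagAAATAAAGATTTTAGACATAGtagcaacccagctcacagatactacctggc
Tenm4 21-nt exon: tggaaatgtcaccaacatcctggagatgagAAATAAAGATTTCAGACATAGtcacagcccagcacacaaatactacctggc
The Tenm3 and Tenm4 exons shared 20 of 21 bases, Tenm2 and Tenm3 19, and Tenm1 and Tenm2, the least alike, 14. The exon further 5′, in the part that encodes the EGF-like repeats, has 27 nt in Tenm3 (chr8:48313238-48313264) and Tenm4 (chr7:96805105-96805131) and 24 nt in Tenm1 (chrX:42727337-42727360).
Tenm1 24-nt exon: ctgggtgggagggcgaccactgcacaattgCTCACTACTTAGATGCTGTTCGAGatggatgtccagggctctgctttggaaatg
Tenm3 27-nt exon: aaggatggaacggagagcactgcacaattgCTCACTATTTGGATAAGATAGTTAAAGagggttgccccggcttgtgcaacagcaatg
Tenm4 27-nt exon: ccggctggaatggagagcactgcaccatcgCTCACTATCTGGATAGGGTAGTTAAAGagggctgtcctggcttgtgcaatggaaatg
The Tenm3 and Tenm4 exons shared 24 of 27 bases at this site.

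Inclusion was the TPM of transcripts that hold the exact exon, as a share of that plus the TPM of transcripts whose intron spans it. It rests on how the authors' estimates divided reads among whole transcripts, not on reads across the junctions. In Tenm4 the 21-nt exon was included at 40.9% in replicate 1 and 41.2% in replicate 2, and the 27-nt exon at 40.1% and 39.8%. The same pair of annotated transcripts holds both Tenm4 exons, so the values are not independent. In Tenm1 the 21-nt exon was included at 100% in both libraries, since the transcript that skips it had no counts. With the posterior mean TPM that the authors also deposited, it was 81.4% and 91.3%. In Tenm3 the 21-nt exon was included at 91.1% and 70.9% and the 27-nt exon at 94.4% and 72.0%, both higher in replicate 1. The unmatched Tenm3 transcript, with 44.5% or more of the counts, is in neither side of those Tenm3 shares. The quantified model of Tenm3-201 had 8889 nt against 8961 nt in M21, so the exon content of Tenm3-201 as quantified was not certain either. The same limit holds for Tenm4: Tenm4-201, the main transcript that skips both exons, had 13547 nt as quantified against 11021 nt in M21, and Tenm4-202, which holds them, had 13469 against 10930 nt. Tenm4-203, the other holder, had 13172 nt in both. Tenm2 has no annotated transcript that skips the 21-nt exon.

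Of the latrophilins, the receptors, Adgrl1 and Adgrl2 were the higher pair. Adgrl2 (chr3:148815583-148990555, minus strand), a postsynaptic organiser in the hippocampus, was at 39.9 TPM in replicate 1 and 56.2 TPM in replicate 2. Adgrl1 (chr8:83900105-83941954, plus strand), which was found as a receptor of the spider toxin alpha-latrotoxin, was at 37.2 and 43.2 TPM. Adgrl3 (chr5:81020138-81825133, plus strand), the latrophilin linked to attention-deficit disorder in humans, was at 19.3 and 29.4 TPM. Adgrl3 was the lowest latrophilin in each library, and its intervals lay apart from both others. Adgrl2 exceeded Adgrl3 by 0.99 ± 0.08 and Adgrl1 exceeded it by 0.75 ± 0.28 on the log2 scale of gene TPM. Adgrl2 over Adgrl1 was 0.24 ± 0.20 and was not called, since the intervals lay apart in replicate 2 but not in replicate 1.

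Adgrl1 and Adgrl2 were each dominated by a coding transcript, and Adgrl3 was not. The number of quantified models differed, at 10 for Adgrl1, 3 for Adgrl2 and 32 for Adgrl3, with 5, 1 and 20 of them long coding. Leading shares therefore also depend on how many models the reads could be divided among. Adgrl1-207 held 84.2% and 93.0% of the TPM of Adgrl1, and Adgrl2-202 held 87.3% and 87.0% of that of Adgrl2. The next Adgrl2 transcript, the intron-retaining Adgrl2-201, held 10.7% and 11.3%. Of 32 annotated transcripts of Adgrl3, 15 had no counts in either library, and the leading transcript was the non-coding Adgrl3-232 with 17.6% and 17.8% of the TPM. The other Adgrl3 transcripts at 10% or more in the mean were the coding Adgrl3-220 (16.1% and 9.09%), whose model is incomplete, the coding Adgrl3-211 (12.7% and 8.82%) and the intron-retaining Adgrl3-228 (8.84% and 11.4%). Non-coding transcripts held 51.8% and 61.4% of the TPM of Adgrl3 and 33.3% and 38.5% of its counts. Counting long coding transcripts alone left Adgrl3 at 10.3 ± 1.44 TPM, Adgrl1 at 37.0 ± 6.43 TPM and Adgrl2 at 41.9 ± 9.92 TPM, which widened Adgrl1 over Adgrl3 to 1.83 ± 0.05 and Adgrl2 over Adgrl3 to 2.00 ± 0.14 on the log2 scale.

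The latrophilin exons shown next lie at the same place in related genes. The 15-nt exon, between the parts that encode the lectin-like and the olfactomedin-like domains, lies at chr8:83926262-83926276 in Adgrl1 and chr5:81509724-81509738 in Adgrl3, and its counterpart in Adgrl2 has 12 nt (chr3:148860427-148860438). Capitals mark the exon.
Adgrl1 15-nt exon: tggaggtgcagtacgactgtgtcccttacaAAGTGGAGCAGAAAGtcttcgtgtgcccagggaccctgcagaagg
Adgrl2 12-nt exon: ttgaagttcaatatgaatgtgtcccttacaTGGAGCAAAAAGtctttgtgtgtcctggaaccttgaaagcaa
Adgrl3 15-nt exon: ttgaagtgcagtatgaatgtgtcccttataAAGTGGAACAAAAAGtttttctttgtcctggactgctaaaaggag
The Adgrl1 and Adgrl3 exons shared 13 of 15 bases, and the Adgrl2 exon shared 11 of 12 bases with the end of each. A 27-nt exon of Adgrl3 (chr5:81757986-81758012) and its Adgrl2 counterpart (chr3:148827212-148827238) shared 21 of 27 bases.
Adgrl2 27-nt exon: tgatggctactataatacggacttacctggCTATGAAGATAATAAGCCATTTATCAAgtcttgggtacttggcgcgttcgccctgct
Adgrl3 27-nt exon: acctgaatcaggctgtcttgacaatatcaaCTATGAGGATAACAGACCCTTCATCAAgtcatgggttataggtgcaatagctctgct
An 18-nt exon lies next to the last exon in Adgrl1 (chr8:83937916-83937933) and in Adgrl3 (chr5:81792361-81792378), in the part that encodes the cytoplasmic tail, and shared 10 of 18 bases.
Adgrl1 18-nt exon: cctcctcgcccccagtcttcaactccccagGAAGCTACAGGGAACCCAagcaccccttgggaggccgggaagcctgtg
Adgrl3 18-nt exon: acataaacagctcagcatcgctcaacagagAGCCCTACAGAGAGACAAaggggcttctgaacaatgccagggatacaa

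The 15-nt exon was nearly always skipped in Adgrl1, with an inclusion of 3.80% in replicate 1 and 3.47% in replicate 2. In Adgrl3 the inclusion was 53.5% and 54.5% over all transcripts. All of the Adgrl3 transcripts that skip the 15-nt exon and had counts were non-coding models, so among protein-coding transcripts its inclusion was 100% in both libraries. The only coding Adgrl3 model that skips it, Adgrl3-201, is also the only one that holds an 11-nt exon, and it had no counts. The value of 100% thus rests on which models are annotated, and a splicing difference between Adgrl1 and Adgrl3 was not tested. The only long coding Adgrl2 transcript that was quantified skips the 12-nt exon, so no inclusion could be given for Adgrl2.

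The 18-nt exon showed the reverse order. In Adgrl1 its inclusion was 100% and 99.5%, where the only model that skips it was the incomplete Adgrl1-203 of 639 nt. In Adgrl3 it was 24.5% and 24.8% over all transcripts, and 41.0% and 54.0% over protein-coding ones. With the posterior mean TPM it was 19.0% and 21.5% over all transcripts. The models that hold it in Adgrl3 did not keep their levels between replicates 1 and 2. Adgrl3-202 was at 1.51 and 0.56 TPM, and Adgrl3-217 at 0.75 and 2.58 TPM. Adgrl3 also has a 52-nt form of this exon with the same start, whose inclusion was 33.7% and 35.4%, and 52.1% and 66.1% over protein-coding transcripts. Each form was set only against transcripts that skip both, so these shares leave out the other form and cannot be added. Transcripts with the 18-nt form held 2.26 and 3.14 TPM, those with the 52-nt form 3.54 and 5.21 TPM, and those that skip both 6.95 and 9.52 TPM. The 27-nt exon of Adgrl3 was included at 57.9% and 50.6%, and at 42.6% and 27.8% over protein-coding transcripts.

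The remaining named exons were at the edges or depended on the non-coding Adgrl3 models. The 53-nt exon of Adgrl2 was included at 2.16% and 1.89%. Of the 2 39-nt exons of Adgrl3, the one at chr5:81663386-81663424 was included at 52.5% and 58.2%, and the one at chr5:81774393-81774431 at 2.07% and 1.87%. The 31-nt non-coding exon of Adgrl3 was included at 66.6% and 74.7%, and the 11-nt exon was held only by a transcript listed at 0 in both libraries. In all, 24 internal exons of 60 nt or less were skipped by another model of the same gene, and 16 of them, in 6 genes, were quantified on both sides with 20% or more of the gene's TPM. Of those, 8 lie in Adgrl3, the member with the most annotated transcripts, and 12 are coding with a length that keeps the reading frame.

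**Figure D4:**
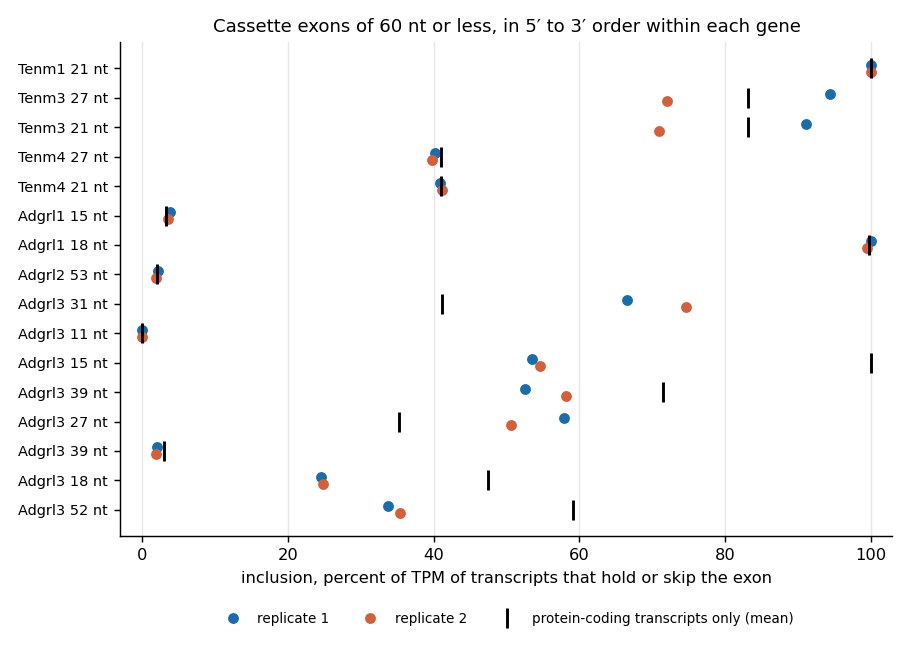
Inclusion of each named cassette exon in percent of the TPM of transcripts that hold or skip it, in replicates 1 and 2, with the mean over protein-coding transcripts as a black mark. The Adgrl1 15-nt exon lies near 0, both Tenm4 exons near 40, and for 6 of the 8 Adgrl3 exons the mark lies away from both points, the exceptions being the 11-nt exon and the 39-nt exon further 3′.

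The FLRT genes differ in build from the other families, since their whole coding sequence lies in 1 exon, and none of their transcripts had a short cassette exon. Flrt3 (chr2:140650914-140671469, minus strand), which takes part in cortical migration and in axon guidance with Robo1, was at 51.8 TPM in replicate 1 and 54.7 TPM in replicate 2. Flrt2 (chr12:95692226-95785215, plus strand), a repulsive ligand of Unc5d-bearing neurons, was at 25.6 and 33.8 TPM. Flrt1 (chr19:7092001-7105729, minus strand), which acts beside Flrt3 in cortical folding, was at 7.88 and 10.4 TPM. The 3 levels did not overlap between genes in either library, and Flrt3 had the smallest ratio between libraries of the 10 members. Flrt3 exceeded Flrt1 by 2.55 ± 0.23 and Flrt2 by 0.86 ± 0.23 on the log2 scale of gene TPM, and Flrt2 exceeded Flrt1 by 1.70 with an SD of 0.00. All 3 pairs were called. Without division by length, Flrt3 over Flrt2 was 0.11 and was no longer called, and on TMM-scaled counts replicate 2 had Flrt3 at 124 and Flrt2 at 125.

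The FLRT coding sequence did not vary between the transcripts measured, only the ends did. Flrt3-202 held 80.9% and 80.6% of the TPM of Flrt3 and Flrt3-201 held 19.1% and 19.4%. Flrt2-201 held 84.4% and 78.1% of that of Flrt2, the rest being Flrt2-202 with 15.6% and 21.9%. Flrt1 has 1 transcript. Flrt3 lies within an intron of Macrod2 on the other strand, which was at 40.4 and 53.8 TPM, and Flrt1 within Macrod1, at 3.94 and 3.28 TPM. The annotated exons of these gene pairs share no base. Among the other members, Tenm1 shared 1465 exon bases with Sh2d1a on the opposite strand, Adgrl3 shared 1582 with Gm16054, Adgrl1 shared 1107 with Gm10644, Tenm4 shared 988 with C230038L03Rik and Tenm3 shared 114 with Gm19744. The sources used here do not say whether counting used strand, so reads in those shared bases could belong to either gene. The opposite genes had from 4 (C230038L03Rik, replicate 1) to 105 (Sh2d1a, replicate 2) expected counts.

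Across the families the order by mean gene TPM was Flrt3, Tenm4, Adgrl2, Adgrl1, Flrt2, Adgrl3, Tenm3, Tenm2, Tenm1 and Flrt1. Of the 9 neighbouring pairs in that order, 3 were apart in both libraries, namely Adgrl1 over Flrt2, Adgrl3 over Tenm3 and Tenm2 over Tenm1. The levels therefore did not give 10 distinct ranks. Genes further apart in the order could still differ, as the intervals of Flrt3 and Adgrl1 did in both libraries. With long coding transcripts alone the order was Flrt3, Adgrl2, Adgrl1, Flrt2, Tenm4, Tenm2, Adgrl3, Flrt1, Tenm3 and Tenm1. By the summed bounds of their transcripts, 5 of 9 neighbours were apart. That order leaves out the unmatched Tenm3 transcript, with which Tenm3 was at 9.54 TPM and Flrt1 at 9.16 TPM.

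By gene TPM the 3 families summed to like totals. The latrophilins reached 96.5 and 129 TPM in replicates 1 and 2, the teneurins 74.5 and 116 TPM, and the FLRT genes 85.3 and 99.0 TPM. The order of the teneurin and FLRT sums differed between the libraries. By long coding transcripts the latrophilins summed to 76.6 and 102 TPM, the FLRT genes to 85.3 and 99.0 TPM and the teneurins to 26.9 and 36.2 TPM, so the teneurin sum then lay below both others in each library.

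No member differed between the 2 libraries by the rule used, a ratio of 2 or more with the deposited intervals apart. That was 0 of 10 members, against 53 of 11010 genes with a mean level of 5 TPM or more, a background of 0.481%. At a ratio of 1.5, Tenm1, Tenm2, Tenm3 and Adgrl3 passed, 4 of 10 members against 5.61% of genes. All 10 members nevertheless had the higher TPM in replicate 2, as had 72.4% of genes. In 9 of 10 the intervals lay apart with replicate 2 higher, all but Flrt3, against 37.4% of genes. The ratios of replicate 2 to replicate 1 ran from 1.41 for Adgrl2 to 1.75 for Tenm3 among the teneurins, Adgrl2 and Adgrl3. They were smaller for Flrt1 and Flrt2, at 1.32 each, for Adgrl1, at 1.16, and for Flrt3, at 1.06. All 4 teneurins lay above each FLRT gene in this ratio of gene TPM, but Tenm4 did not on other scales. With long coding transcripts the ratio was 1.19 for Tenm4 and 1.32 each for Flrt1 and Flrt2. On TMM-scaled counts, described next, the log2 ratio was 0.16 for Tenm4, 0.23 for Flrt1 and 0.18 for Flrt2.

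The median log2 ratio of TPM + 1 was 0.51 over the members and 0.14 over the 11010 genes, whose 5th and 95th percentiles were -0.28 and 0.56. On counts scaled by the trimmed mean of M values (TMM), which centres the libraries on most genes, the medians were 0.26 and -0.03, and 9 of 10 members were higher in replicate 2, with Flrt3 at -0.091. Markers moved alongside. All 12 neuronal markers were higher in replicate 2, with a median log2 ratio of 0.40 and summed levels of 3784 and 4738 TPM. Of the 9 radial glia, 8 cell cycle and 5 intermediate progenitor markers, 3, 1 and 0 were higher in replicate 2, with medians of -0.19, -0.20 and -0.11. Markers of some other cell types were higher too. Oligodendrocyte precursor markers had a median of 0.50 (5 of 5 higher, sums of 46.6 and 69.0 TPM) and pericyte markers 0.43 (6 of 6, sums of 113 and 155 TPM). Red blood cell markers had a median of 0.36 (7 of 8) and meningeal markers 0.28 (7 of 8). Microglia markers had a median of 0.23 (6 of 8) and endothelium markers 0.17 (6 of 8), nearer to the 0.14 over the 11010 genes. Choroid plexus markers had a median of 0.01 (3 of 6). The part of these cell types in the members' difference was not tested.

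Gene span also moved with the ratio. Protein-coding genes annotated over 500 kb or more (n = 138) had a median log2 ratio of 0.41 and were higher in replicate 2 in 94.2% of cases, against 0.27 for 1326 genes of 100 to 500 kb and 0.12 for 8904 shorter genes. The teneurins span 616 to 1229 kb and Adgrl3 805 kb, while Adgrl2 spans 175 kb, Flrt2 93.0 kb, Adgrl1 41.9 kb, Flrt3 20.6 kb and Flrt1 13.7 kb. The 5 members in the longest class had log2 ratios from 0.54 for Tenm1 to 0.76 for Tenm3, all above that class's median, and its 95th percentile was 0.81. This did not hold on TMM-scaled counts, where the class median was 0.27 and Tenm4 was at 0.16. With long coding transcripts the log2 ratios of TPM + 1 were lower, at 0.23 for Tenm4, 0.26 for Adgrl3 and 0.40 for Tenm1. Tenm2 was then at 0.48 and Tenm3 at 0.60. Without the added 1, Tenm1 was at 0.60 by gene TPM and 0.57 by long coding transcripts. The part of gene span in the difference was not tested.

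**Figure D5:**
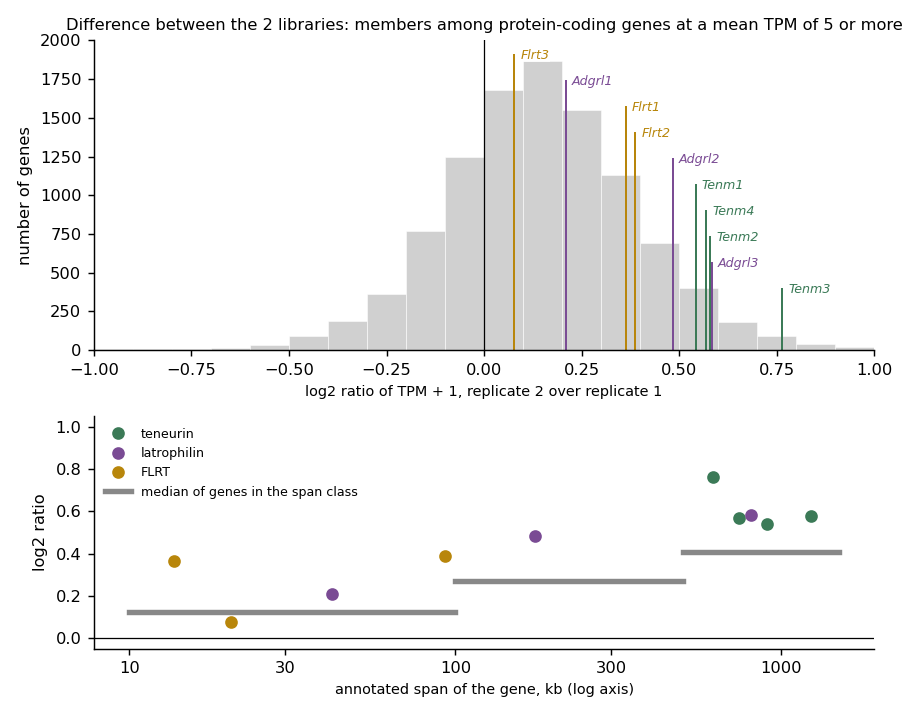
Top, number of protein-coding genes by log2 ratio of TPM + 1, replicate 2 over replicate 1, with each member as a coloured line; 18 of the 10366 genes in the histogram lie outside the plotted range. Bottom, the same ratio of each member against its annotated span in kb (log axis), with grey bars for the median of genes in 3 span classes. The 5 members that span over 500 kb lie highest, and all members lie above 0.

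The proteins that bind these families were also present as RNA. All 19 partner genes listed reached 1 TPM in both libraries, as did 59.6% of nuclear protein-coding genes. The median of the partners was 15.7 TPM, against 4.25 TPM over nuclear protein-coding genes. By the 2-fold rule 0 of 19 differed (background 0.481%). That rule covered only genes with a mean of 5 TPM or more, so Cntn6, Shank2, Shank3, Unc5b and Unc5c could not be called. Of the Unc5 receptors that bind FLRT proteins, Unc5a was at 11.9 ± 2.55 TPM, Unc5d at 5.01 ± 1.32 TPM, Unc5c at 3.64 ± 0.198 TPM and Unc5b at 1.85 ± 0.141 TPM (SD, n = 2 here and below). Flrt2 and Flrt3 thus lay above each of the 4 Unc5 genes in both libraries. Gpc3, a glypican bound by Unc5 receptors, was at 48.9 ± 8.85 TPM and Dcc, the netrin receptor that works with them, at 20.5 ± 5.60 TPM. Robo1, bound by Flrt3, was at 31.7 ± 6.75 TPM, and Fgfr1, an FGF receptor bound by FLRT proteins, at 30.7 ± 5.30 TPM.

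Partners of the latrophilins spanned a wide range. Nrxn3 and Nrxn2, presynaptic neurexins, were at 43.7 ± 17.3 and 34.3 ± 1.30 TPM. Cntn6, a contactin bound by Adgrl1, was at 4.46 ± 1.82 TPM. The Shank scaffolds that bind latrophilin tails were lower, with Shank1 at 10.8 ± 3.81 TPM, Shank3 at 4.45 ± 0.707 TPM and Shank2 at 4.16 ± 0.940 TPM, and each lay below Adgrl1 and Adgrl2 in both libraries. Gna12 and Gna13, G protein subunits of the class that latrophilins can engage, were at 15.7 ± 1.26 and 12.6 ± 1.75 TPM. Dystroglycan (Dag1), tied to teneurins, was at 38.0 ± 5.14 TPM.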

How the data were processed

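Expected counts, TPM and the percent of each gene's TPM held by a transcript (IsoPct) were used as deposited by the authors, together with the posterior mean TPM and the interval of TPM in the deposited tables. The assembly was mm10 per the labels, and the annotation was GENCODE M4 per the notes deposited with the files; the aligner, the counting program, the level of the interval and the use of strand are not given in the sources used here. The protocol named in the labels is Smart-seq. Gene names, transcript classes, exons and sequences came from GENCODE M21 on the same assembly (GRCm38). It matched 42462 of 43346 genes (98.0%) and 83 of 84 transcripts of the members, 75 of them with the same length.

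The 10 members, their partner genes, related genes and markers were chosen with earlier results of these data known. The text names all members, the partners except some that are not reported here, the 5 related genes with the highest mean TPM, transcripts with 10% or more of a gene's TPM, and cassette exons of at most 60 nt with 20% or more of it. Libraries were compared over genes with a mean of 5 TPM or more, and ratios used log2(TPM + 1). The comparison was run on simulated gene counts with known changes. Those held counting noise alone, so the run does not cover variation between libraries or the division of reads among transcripts. TMM scaling used edgeR 4.0.16 in R 4.3.3; other steps used Python 3.11.15 with numpy 2.4.6, pandas 2.3.3 and matplotlib 3.10.9. Alternatives were posterior mean TPM, protein-coding transcripts, counts without division by length, TPM rescaled to nuclear protein-coding genes, other thresholds, and each library alone. The classes of long coding transcripts, with and without the unmatched one, were chosen after seeing the data.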

Additional observations from a re-analysis of the deposited data

How the results depend on the processing

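The number of pairs called was 10 of 12, from 9 to 11 under every alternative run, and leaving out a library gave 10 and 11. These were not always the same pairs. With long coding transcripts Tenm3 over Tenm1 was lost, while Tenm2 and Tenm3 were called apart with Tenm2 higher. The family sums also depended on the setting. Without division by length they were 289, 406 and 273 CPM (counts scaled to the library total) for teneurins, latrophilins and FLRT genes. CPM is another unit, so these sums cannot be set against the spread in TPM. Rescaled to nuclear protein-coding genes, the latrophilins reached 137 TPM and the FLRT genes 112 TPM. Rescaling multiplied all genes of a library by the same factor, so the relation between families within a library did not change. With long coding transcripts alone the teneurins were at 31.5 TPM and the latrophilins at 89.2 TPM, and with the unmatched Tenm3 transcript the teneurins were at 37.0 TPM. Those sums on transcript classes moved by more than the spread between libraries. Each library alone gave 74.5 and 116 TPM for teneurins, 96.5 and 129 TPM for latrophilins and 85.3 and 99.0 TPM for FLRT genes.

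Tenm3 over Tenm2 reversed to -0.29 without division by length, -1.40 with long coding transcripts and -0.15 with the unmatched transcript added, on the log2 scale. Adgrl2 over Adgrl1 reversed to -0.19 without division by length. Calls were lost for Flrt3 over Flrt2 without division by length (0.11), for Tenm3 over Tenm1 with long coding transcripts (0.71) and for Tenm4 over Tenm3 with the unmatched transcript added (0.62). At 1.5-fold, 4 members differed between libraries in place of 0, and with TMM scaling Flrt3 reversed to -0.091; the cause of these changes was not tested. Without a minimum level, or with one of 1 TPM, 0 members differed. No paired analysis was possible because the 2 libraries form a single group. With 2 libraries the spread itself is poorly known, and transcript shares rest on the authors' division of reads among models.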

Other observations

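Genes related in build to the members were also measured. All 21 listed adhesion G protein-coupled receptors and leucine-rich repeat membrane proteins reached 1 TPM in both libraries, as did 59.6% of nuclear protein-coding genes. The median of the listed genes was 13.8 TPM, against 4.25 TPM over nuclear protein-coding genes. Of the 21, 20 had the higher TPM in replicate 2, as had 72.4% of genes with a mean of 5 TPM or more. The highest was Adgrg1, an adhesion receptor needed for cortical lamination, at 92.2 ± 7.23 TPM (SD, n = 2), above every member. Lrrn3 and Lrrn1, neuronal leucine-rich repeat proteins, were at 84.0 ± 15.5 and 43.7 ± 6.29 TPM. Adgrb3, a receptor of secreted C1q-like proteins, was at 36.7 ± 4.70 TPM, and the atypical cadherin Celsr2 was at 33.8 ± 1.17 TPM. Flrt3 thus ranked below Adgrg1 and Lrrn3 and above the other leucine-rich repeat genes listed, in both libraries.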
